A study of Mus musculus with 12 samples.

Results

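SVZ1 (migrating) [2-P] is the name that the deposited cell table gives to 2332 of 36263 cells of newborn mouse cortex, here called SVZ1 cells. They were chosen by that name alone, which the authors transferred from a reference atlas of the developing mouse brain. The cells came from prefrontal cortex of mice at P0, the day of birth, which the labels give as C57BL/6J and the study's methods as C57BL/6N, from a line with a germline frameshift allele of Myt1l, a zinc finger transcription factor of neurons. Wild-type mice, Myt1l (+/+), are written WT, heterozygous mice, Myt1l (+/-), HET and homozygous mice, Myt1l (-/-), HOM. For each genotype, methanol-fixed cells of 2 animals were pooled in 1 droplet library read from the 5′ end, and the 12 deposited samples are 4 runs of each of the 3 libraries. With 1 library per genotype there was no replicate, so nothing was tested between genotypes and every difference is one between libraries. Exact (Clopper-Pearson) 95% intervals of shares cover counting error only. Values in a series are given in the order WT, HET and HOM unless stated.

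The subventricular zone lies beside the ventricle of the developing cortex. Radial glia give rise to intermediate progenitors there, which express the T-box factor Eomes (TBR2) for a short time, divide and produce glutamatergic neurons. The newborn neurons leave the zone, switch off Eomes and Neurog2, switch on Neurod1, Neurod2 and Tbr1, and migrate along radial glia to the cortical plate. Guidance receptors, small GTPases and microtubule proteins carry that movement.

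The libraries held 979, 561 and 792 SVZ1 cells. These were deep cells, with a median of 3889, 3915 and 4078 molecules, against 956.5, 1045 and 1206 over all other cells. Their median mitochondrial content was 3.195%, 3.48% and 2.68% of molecules. The probability of the transferred name was at least 0.9 in 91.6%, 87.5% and 87.1% of SVZ1 cells. A cell barcode also seen in another library was carried by 88 of them. Xist, the RNA of the inactive X chromosome, was found in 266 of the WT SVZ1 cells and in 0 of 561 HET and 0 of 792 HOM cells, so the sex of the pooled animals and the genotype cannot be told apart. RNA of a frameshift allele can persist, so Myt1l levels do not check the genotype names. Over all cell types the libraries held 10503, 12072 and 13688 cells. The study's text assigns these totals otherwise, that of the library named WT here to homozygous, that of HET to wild-type and that of HOM to heterozygous mice. The names used here are those of the deposited cell table, no value here checks them, and every direction below rests on them.

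Promoter windows are shown for 3 marker genes of these cells, Eomes and Neurog2, which were both lower in the mutant libraries, and Sema3c, which was not. Eomes lies on the plus strand at chr9:118478212-118486132 of mm10, Neurog2 at chr3:127633135-127635631 and Sema3c at chr5:17574281-17730268, all plus-strand protein-coding genes. Each window runs over 300 bases around the RefSeq start site (GRCm38.p6), mostly upstream of it. The gene spans are from GENCODE, which starts Sema3c further upstream than RefSeq does, so that window lies inside the GENCODE gene. The windows were searched on both strands for AAAGTT, the core motif of MYT1L, and for CANNTG, the E-box bound by factors such as NEUROG2 and NEUROD1, and capitals mark the E-boxes. AAAGTT was in 0 of the 3 windows and in 14.05% of 32851 windows of that length. Sema3c held 2 E-boxes, Eomes and Neurog2 held 0, and 72.3% of all windows held at least 1. The window of the marker Gadd45g, which is not shown, held 3 E-boxes and 0 AAAGTT, and no window was available for the marker Mfap4. A relation between motifs and levels was not tested.
Eomes, chr9:118477939-118478238, plus strand: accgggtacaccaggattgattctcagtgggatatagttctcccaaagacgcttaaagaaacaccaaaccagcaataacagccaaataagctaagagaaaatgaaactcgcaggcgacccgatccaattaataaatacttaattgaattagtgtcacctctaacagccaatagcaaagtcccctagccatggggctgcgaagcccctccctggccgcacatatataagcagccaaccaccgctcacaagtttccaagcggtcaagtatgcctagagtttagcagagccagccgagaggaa
Neurog2, chr3:127632886-127633185, plus strand: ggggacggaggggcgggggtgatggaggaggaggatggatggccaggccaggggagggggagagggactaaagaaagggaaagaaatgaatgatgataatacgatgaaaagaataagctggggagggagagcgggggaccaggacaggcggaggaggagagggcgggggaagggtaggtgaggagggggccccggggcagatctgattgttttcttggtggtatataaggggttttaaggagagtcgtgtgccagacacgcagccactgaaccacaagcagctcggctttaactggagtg
Sema3c, chr5:17574566-17574865, plus strand: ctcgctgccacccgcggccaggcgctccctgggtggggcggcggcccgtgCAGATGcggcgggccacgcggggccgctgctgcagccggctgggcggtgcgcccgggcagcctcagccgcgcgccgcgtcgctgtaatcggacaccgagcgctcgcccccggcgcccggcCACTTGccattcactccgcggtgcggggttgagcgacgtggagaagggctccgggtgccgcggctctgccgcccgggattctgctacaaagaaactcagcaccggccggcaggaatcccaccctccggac

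The name was checked against 5 markers, namely Eomes, Neurog2, Gadd45g, Sema3c and Mfap4. Levels are sums of depth-corrected values per 1000000 of all genes (CPM), and levels of different genes are not compared. Eomes was at 158.5 CPM in SVZ1 cells of all libraries together, and SVZ1 was the highest of 21 cell types in each library. Choroid plexus [20-P], with 23 cells, came next at 41.1 CPM, all of it from the HET library. Neurog2, a proneural factor that starts neurogenesis, was also highest in SVZ1 in each library, at 63.0 CPM overall against 45 CPM in Ganglionic eminences [9-P]. Mfap4, an extracellular matrix protein, was highest in SVZ1 of the WT and HET libraries. In HOM it was at 46.2 CPM in SVZ1, below 48.4 CPM in Ganglionic eminences [9-P] and 91.1 CPM in Endothelial2 [21-P].

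Sema3c and Gadd45g did not single out these cells. Sema3c, a secreted semaphorin that guides migrating cells and axons, was at 657 CPM in SVZ1 and at 1083 CPM in the 66 cells of SVZ2 (migrating) [8-P]. Gadd45g, a growth arrest and stress gene, was at 42.0 CPM in SVZ1 and at 774 CPM in Ganglionic eminences [9-P], so SVZ1 ranked 7 of 21. The log2 ratio of SVZ1 to all other cells was 4.95 for Eomes, 3.79 for Sema3c, 3.44 for Neurog2, 3.35 for Mfap4 and -0.74 for Gadd45g. The names were assigned from expression, so these ratios describe the name and test nothing.

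**Figure D1:**
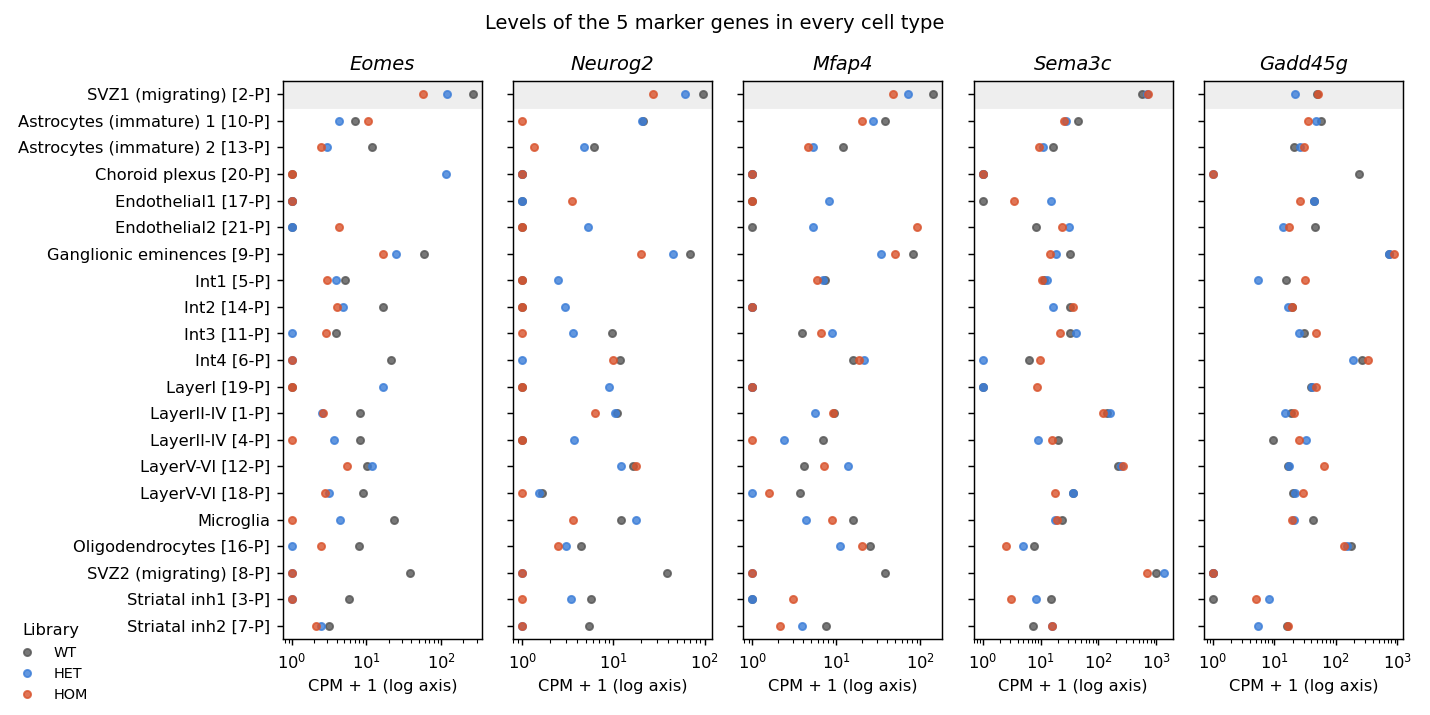
Levels of the 5 marker genes in each of 21 cell types, as CPM + 1 on a log axis, with 1 point for each library and SVZ1 in the shaded row. Eomes and Neurog2 were highest in the shaded row in all 3 libraries, Gadd45g was highest in Ganglionic eminences [9-P], and Sema3c was shared with SVZ2 (migrating) [8-P].

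Genes of dividing cells and of radial glia were low in SVZ1. Mki67 was at 7.79 CPM against 38.3 CPM over all other cells, and Top2a at 10.5 against 87.5 CPM, both markers of cells in cycle. The radial glia genes Sox2 and Vim were at 6.43 and 52.8 CPM against 58.7 and 471 CPM, whereas Pax6 was at 44.7 against 28.4 CPM. Genes of newborn glutamatergic neurons were above the other cells, with Neurod1 at 484 against 41.3 CPM, Neurod2 at 1169 against 402 CPM and Tbr1 at 449.7 against 115 CPM. Eomes was above 0 in 13.5% of SVZ1 cells. Of 23 intermediate progenitor genes, 22 were in the matrix. In WT these summed to 3668 CPM in SVZ1 against 804 CPM over all other cells, and 23 newborn neuron genes to 28659 against 16848 CPM.

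Among 1321 genes with a sum of at least 100 in SVZ1 of each library, 114 (8.63%) were at least 2-fold higher in SVZ1 than in all other cells of the same library in all 3. The 15 genes whose smallest ratio over the libraries was highest were Nrn1, Sstr2, Sema3c, Unc5d, Neurod1, Slc17a6, Hs3st1, Mir99ahg, Lhx2, Sorl1, Carmil3, Emx1, Rnd2, Frmd4b and Nos1. Of the 5 markers only Sema3c reached a sum of 100 in each library. Eomes, whose smallest sum was 58, was therefore not ranked, with log2 ratios of 4.50, 5.27 and 4.72. Among the ranked genes Nrn1, neuritin, led with log2 ratios of 4.55, 4.24 and 4.27. Sstr2, a somatostatin receptor, followed with 3.95, 3.75 and 3.96. Unc5d, a netrin receptor of multipolar cells of the subventricular zone, had ratios of 3.17, 3.38 and 3.23. Lhx2 and Emx1 are transcription factors of the dorsal forebrain, Slc17a6 is a vesicular glutamate transporter, and Rnd2 is a small GTPase that Neurog2 activates in migrating cortical neurons.

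The closest types shared some of these genes. Against SVZ2 (migrating) [8-P], Neurod1 had a log2 ratio of 0.11, Emx1 of 0.14 and Mir99ahg of 0.21, while Unc5d (3.18), Nos1 (2.83) and Eomes (2.67) were higher in SVZ1. Against LayerV-VI [12-P], Eomes (4.34) and Lhx2 (4.05) had high ratios and Slc17a6 a low one (0.57). Against LayerII-IV [1-P], the ratio was 5.52 for Eomes, 3.60 for Nrn1, 3.20 for Rnd2 and -0.16 for Neurod2.

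SVZ1 cells took a smaller share of both mutant libraries. They made up 9.32% of WT cells (95% interval 8.77 to 9.89%), 4.65% of HET cells (4.28 to 5.04%) and 5.79% of HOM cells (5.40 to 6.19%), so the ratio to WT was 0.499 in HET and 0.621 in HOM. The order WT, HOM, HET was the same in each of 4 depth classes. In each class the WT interval lay above both mutant intervals, whereas those of HET and HOM overlapped. In cells with at least 4000 molecules the share was 21.2% in WT, 10.8% in HET and 11.4% in HOM, and in those with fewer than 1000 it was 2.455%, 0.892% and 1.005%. Among cells with a transcript of a Y-linked gene, SVZ1 made up 112 of 603 WT cells (18.6%), 122 of 1865 HET cells (6.54%) and 183 of 2086 HOM cells (8.77%). Free RNA was not estimated, so in the WT pool such a transcript does not show that a cell was male.

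Other cell types also took smaller shares of the mutant libraries. Ganglionic eminences [9-P] made up 5.16%, 2.95% and 3.25% of cells, SVZ2 (migrating) [8-P] 0.419%, 0.157% and 0.0219% and LayerII-IV [1-P] 17.95%, 14.1% and 15.1%, whereas LayerV-VI [12-P] made up 2.60%, 3.64% and 3.71%. A lower share was thus not particular to SVZ1.

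SVZ1 cells with an Eomes value above 0 were fewer still. They made up 1.91% of all WT cells (1.66 to 2.19%), 0.555% of HET cells (0.430 to 0.704%) and 0.336% of HOM cells (0.246 to 0.448%). SVZ1 cells with Eomes at 0 made up 7.41% of WT, 4.09% of HET and 5.45% of HOM cells. Among cells with at least 2000 molecules, SVZ1 cells with Eomes took 4.50%, 1.37% and 0.661%. SVZ1 held 201 of 302 cells with Eomes in WT, 67 of 101 in HET and 46 of 73 in HOM, that is 66.6%, 66.3% and 63.0%. Where a cell is counted by its Eomes value, fewer cells of a kind and less RNA of the gene per cell cannot be told apart.

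**Figure D2:**
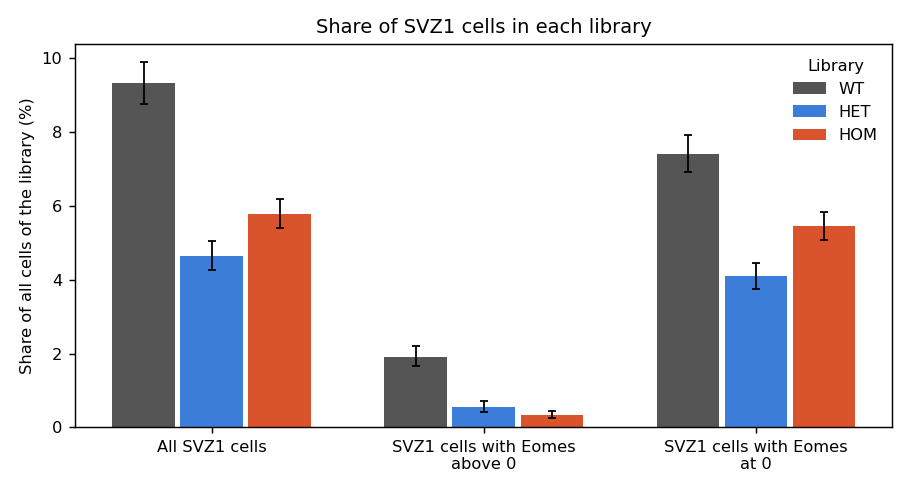
Share of all cells of each library, in percent, taken by SVZ1 cells, by SVZ1 cells with an Eomes value above 0 and by those with Eomes at 0. Bars are the WT, HET and HOM libraries and error bars are exact 95% intervals for counting error. The share with Eomes is 1.91% in WT and 0.336% in HOM.

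SVZ1 cells lay mostly in 4 of the authors' Leiden clusters, which are groups of cells with similar expression, and the mix differed between libraries. Cluster 14 held 52.8%, 37.1% and 17.7% of the SVZ1 cells, cluster 2 24.2%, 32.3% and 48.9%, cluster 12 7.56%, 15.9% and 17.55% and cluster 4 14.4%, 14.3% and 15.4%. Cells of cluster 4 were shallow, with medians of 905, 1254 and 1119 molecules. The genes that separate these clusters also differ between the libraries, so the cluster sizes are given as the make-up of each library's SVZ1 cells and not as a result.

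The clusters differed in how far their SVZ1 cells carried progenitor or neuron genes. In WT, Eomes was at 437 CPM in cluster 14, 168.5 CPM in cluster 4, 30.1 CPM in cluster 12 and 13.25 CPM in cluster 2. Neurod1 was highest in cluster 12, at 974 CPM, as was Tbr1 at 894 CPM. Ratios between libraries are therefore given below for all SVZ1 cells and, for many genes, also within cluster 14 or 2.

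Eomes, Neurog2 and Mfap4 had lower levels in both mutant libraries. Eomes was at 265.5, 121 and 57.05 CPM in SVZ1 cells, log2 ratios to WT of -1.14 and -2.22. It was above 0 in 20.5% (18.0 to 23.2%), 11.9% (9.38 to 14.9%) and 5.81% (4.28 to 7.67%) of SVZ1 cells, and these intervals do not overlap. Within cluster 14 the levels were 437, 276 and 240.2 CPM, with Eomes above 0 in 34.0% (30.0 to 38.3%), 25.5% (19.7 to 32.0%) and 22.9% (16.2 to 30.7%). The log2 ratio in HOM was -0.86 within that cluster, and there the intervals of the mutant shares overlapped with that of WT.

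Neurog2 had the same order with fewer cells. Its level was 95.3, 59.7 and 26.6 CPM, log2 ratios of -0.67 and -1.84, and it was above 0 in 6.74% (5.25 to 8.50%), 3.92% (2.47 to 5.88%) and 3.03% (1.95 to 4.475%) of SVZ1 cells. The HOM interval lay below that of WT and the HET interval overlapped with it. Within cluster 14 the levels were 138, 151 and 67.0 CPM, so HET was not below WT there. Mfap4 was at 141, 69.45 and 46.2 CPM and was found in 13.6% (11.5 to 15.9%), 7.665% (5.60 to 10.2%) and 4.92% (3.525 to 6.67%) of SVZ1 cells, both mutants below WT. Within cluster 14 its log2 ratio was -0.74 in HET and -0.39 in HOM.

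The remaining markers went other ways. Sema3c was at 576, 704 and 720 CPM and was found in 51.3% (48.1 to 54.45%), 59.4% (55.2 to 63.45%) and 63.6% (60.2 to 67.0%) of SVZ1 cells, both mutants above WT. Gadd45g was at 47.7, 20.8 and 50.2 CPM, and its shares of 3.98% (2.85 to 5.41%), 2.32% (1.24 to 3.93%) and 5.56% (4.065 to 7.39%) overlapped with WT in both mutants.

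Outside SVZ1, Eomes and Neurog2 were also below WT in both mutant libraries. Over all other cells, Eomes was above 0 in 1.06%, 0.295% and 0.209% and its log2 ratio to WT was -1.91 in HET and -2.44 in HOM, so the ratio was no nearer to 0 than in SVZ1. For Neurog2 it was -0.84 and -1.85. Microglia, which should not express these genes, had Eomes above 0 in 2.02% of 247 WT cells, 0.360% of 278 HET cells and 0 of 346 HOM cells, where the limit of 3 counts for a count of 0 allows a share of cells with a value above 0 of up to 0.867%. Their median depth was 741, 760 and 818.5 molecules, far below that of SVZ1. Neurog2 was found in 1.215%, 0.719% and 0.289% of microglia, Gadd45g in 3.24%, 1.80% and 1.73%, Sema3c in 2.43%, 1.08% and 1.445% and Mfap4 in 1.215%, 0.360% and 0.289%. The intervals of SVZ1 and microglia overlapped for Gadd45g in WT and HET and for Neurog2 in HET. The Neurog2 share of SVZ1 in HET was thus not distinguishable from free RNA at this depth. Gadd45g was also above 0 in 9.07% of Oligodendrocytes [16-P] and 3.62% of Endothelial1 [17-P] cells. Microglia may thus express Gadd45g too, so they cannot serve as a measure of its free RNA. The part of free RNA in the other values was not tested.

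**Figure D3:**
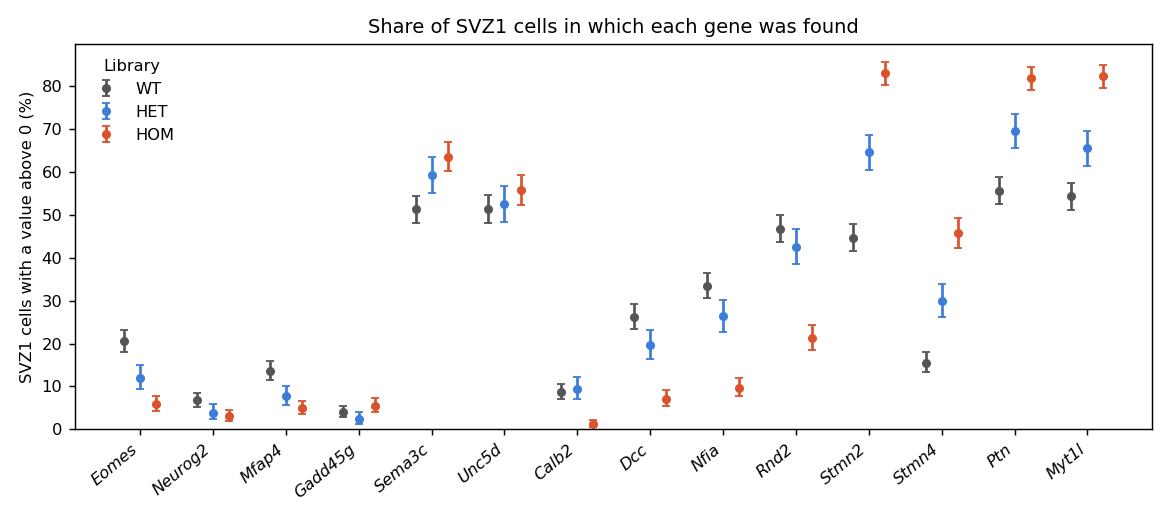
Percent of SVZ1 cells with a value above 0 for the 5 markers and 9 further genes, with 1 point for each library and exact 95% intervals for counting error. Eomes, Dcc, Nfia and Rnd2 are lower in HOM than in WT, Calb2 is near 0 in HOM, and Stmn2, Stmn4 and Myt1l are higher in HET and higher again in HOM.

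Within the WT library, SVZ1 cells with Eomes differed from those without it in other genes. Neurog2 was found in 21.4% (15.9 to 27.7%) of the 201 cells with Eomes, Mfap4 in 40.3% (33.5 to 47.4%) and Pax6, a radial glia factor, in 19.9% (14.6 to 26.1%). Of the 778 cells without it, 2.96%, 6.68% and 4.37% contained them. Stmn2, a stathmin of growing axons, was found in 18.4% (13.3 to 24.5%) of cells with Eomes and 51.5% (48.0 to 55.1%) without it, and Myt1l in 29.85% and 60.7%. Cells with Eomes were deeper, with a median of 4680 molecules against 3759. Mki67 was found in 4 of the 201.

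Stmn2 was found in more of the Eomes cells of the mutant libraries. It was above 0 in 27 of 67 such cells in HET, 40.3% (28.5 to 53%), and in 26 of 46 in HOM, 56.5% (41.1 to 71.1%), both above the WT interval. Myt1l was found in 40.3% (28.5 to 53%) and 50% (34.9 to 65.1%), where the WT interval of 23.6 to 36.7% overlapped with both. Neurog2 was found in 19.4% (10.8 to 30.9%) and 15.2% (6.34 to 28.9%), which overlapped with WT. Rnd2 was found in 64.2%, 77.6% and 56.5% of cells with Eomes and in 42.3%, 37.85% and 19.2% of SVZ1 cells without it. Of SVZ1 cells without Eomes, 51.5%, 68.0% and 84.7% contained Stmn2 and 60.7%, 69.0% and 84.45% contained Myt1l. Higher shares of both genes in the mutant libraries were thus not particular to cells with Eomes.

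Of 23 intermediate progenitor genes, 14 were measured in SVZ1, a gene being measured where its sum reached 50 over both libraries. In HET, 5 were above and 9 below WT with a median log2 ratio of -0.24, and 3 were at least 2-fold lower, namely Eomes, Mfap4 and Gadd45g. The Gadd45g ratio rests on summed values of 58 in WT and 15 in HET, and its share of cells overlapped with WT. For Mfap4 the HET ratio was -1.03 in SVZ1 and -1.16 over all other cells. In HOM, 7 were above and 7 below with a median of 0.00, and 3 were at least 2-fold lower, namely Eomes, Neurog2 and Mfap4. Over all genes, 60 of 5812 (1.03%) were at least 2-fold lower and 14 (0.241%) at least 2-fold higher in HET. In HOM, 220 of 6206 (3.54%) were lower and 81 (1.31%) higher. The median over all genes was -0.01 in HET and -0.08 in HOM. The 5 markers belong to this list, and its 2-fold lower genes were all markers.

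Several other members of the list were as high in HOM as in WT or higher. Hes6, an inhibitor of HES1, was at 317, 278 and 458 CPM and was found in 32.1%, 28.9% and 47.1% of cells. Sstr2 was at 500.5, 563 and 801 CPM. Insm1, a zinc finger factor of delaminating progenitors, was at 87.9, 69.45 and 100.3 CPM. Unc5d, at 563, 528 and 585 CPM, and Neurod1, at 454, 553 and 471 CPM, differed little in HOM. Of the Notch pathway genes on the list, Mfng was at 74.8, 58.3 and 50.2 CPM and Dll3 at 28.8, 33.3 and 23.6 CPM. The neuronal RNA-binding genes Elavl2 and Elavl4 were at 267, 218 and 141 CPM and 156, 235 and 150.5 CPM.

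In HOM, the 12 lowest genes among those with a sum of at least 150 had log2 ratios from -3.11 to -1.31. They were Calb2, Slc30a10, Dcc, Eomes, Cdh10, Nfia, Mfap4, Dhx15, Rnd2, Klf3, Nudcd3 and Dleu2. All 12 were also below WT over all other cells, with a median of -0.76 there against -1.84 in SVZ1, and all 12 were below WT within cluster 14 and within cluster 2. They were ranked by their ratio in SVZ1, so a smaller ratio elsewhere is partly fixed by that choice. The direction within clusters 14 and 2, which hold a large part of the SVZ1 cells, is partly fixed by it too.

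Calb2, the calcium-binding protein calretinin, had the lowest ratio. It was at 169, 236 and 19.7 CPM, from summed values of 206, 170 and 20, and was found in 8.68% (6.99 to 10.6%), 9.45% (7.16 to 12.2%) and 1.14% (0.521 to 2.15%) of SVZ1 cells, so HOM lay below WT while HET did not. Within cluster 14 the levels were 250.3, 481 and 22.35 CPM. Over all other cells its log2 ratio was -0.63 in HET and -1.22 in HOM. Calb2 is also made by Cajal-Retzius cells, and Zic1, from the same marker list, was at 74.0, 22.2 and 1.97 CPM in SVZ1, a pattern whose part in the Calb2 values was not tested.

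Dcc, the netrin receptor, was at 294, 182 and 59.0 CPM and was found in 26.25% (23.5 to 29.1%), 19.6% (16.4 to 23.1%) and 7.07% (5.385 to 9.08%) of SVZ1 cells. Its HOM log2 ratio was -2.32 in SVZ1, -1.96 within cluster 14 and -0.35 over all other cells. Rnd2 was at 549.8, 464 and 211.5 CPM, with shares of 46.8% (43.6 to 50%), 42.6% (38.5 to 46.8%) and 21.3% (18.5 to 24.4%). Its HOM ratio was -1.38 over all SVZ1 cells and -0.37 within cluster 14, but -1.41 within cluster 2. Cdh10, a cadherin, was at 165, 146 and 39.35 CPM, with an HOM ratio of -1.53 within cluster 14.

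Nfia, a transcription factor of gliogenesis and of cortical neurons, was at 346, 239 and 82.6 CPM and was found in 33.5% (30.55 to 36.6%), 26.4% (22.8 to 30.2%) and 9.72% (7.75 to 12%) of SVZ1 cells. Its HOM log2 ratio was -2.07, against -1.51 within cluster 14 and -0.58 over all other cells. Slc30a10, a manganese transporter, was at 138, 80.6 and 27.5 CPM, and Klf3, a transcriptional repressor, at 163.5, 106 and 63.9 CPM. For the RNA helicase Dhx15, for Nudcd3 and for the long non-coding RNA Dleu2, the HOM ratios of -1.39, -1.31 and -1.31 stood beside -1.20, -1.20 and -1.23 over all other cells.

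The 12 highest genes in HOM had log2 ratios from 1.27 to 1.93 in SVZ1 and a median of 0.24 over all other cells. They were Kirrel3, Stmn4, Jakmip1, Lypd6, Stmn2, Vstm2b, Syt5, Carhsp1, Csmd1, Dab1, Prkar1b and Bmerb1. All 12 were above WT within cluster 14 and within cluster 2. They were ranked by their ratio over all SVZ1 cells, of which these clusters are a large part. That direction, and the smaller median elsewhere, are therefore partly fixed by the choice. Over all other cells 10 were above WT, and Lypd6 (-0.17) and Csmd1 (-0.05) were not.

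Stathmins, which bind tubulin and regulate microtubule growth, were among them. Stmn2 was at 645, 1111 and 1774 CPM and was found in 44.7% (41.6 to 47.9%), 64.7% (60.6 to 68.7%) and 83.1% (80.3 to 85.6%) of SVZ1 cells. Its HOM ratio was 1.46, against 1.22 within cluster 14, 1.01 within cluster 2 and 0.37 over all other cells. Stmn4 was at 142, 307 and 508 CPM and was found in 15.5% (13.3 to 17.95%), 29.95% (26.2 to 33.9%) and 45.8% (42.3 to 49.4%) of cells. Over all other cells the log2 ratio of Stmn4 was 0.55 in HET and 0.59 in HOM. Stmn2 was above WT in all 17 other types compared in each mutant. Kirrel3, a cell adhesion protein, was at 37.8, 72.2 and 144 CPM, Dab1, the adaptor of the reelin receptors, at 102, 168 and 254 CPM, and Jakmip1, a microtubule-associated protein, at 55.9, 80.6 and 166 CPM. Within cluster 14 the HOM log2 ratio of Kirrel3 was 0.52 against 1.93 over all SVZ1 cells, and that of Jakmip1 0.69 against 1.57.

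**Figure D4:**
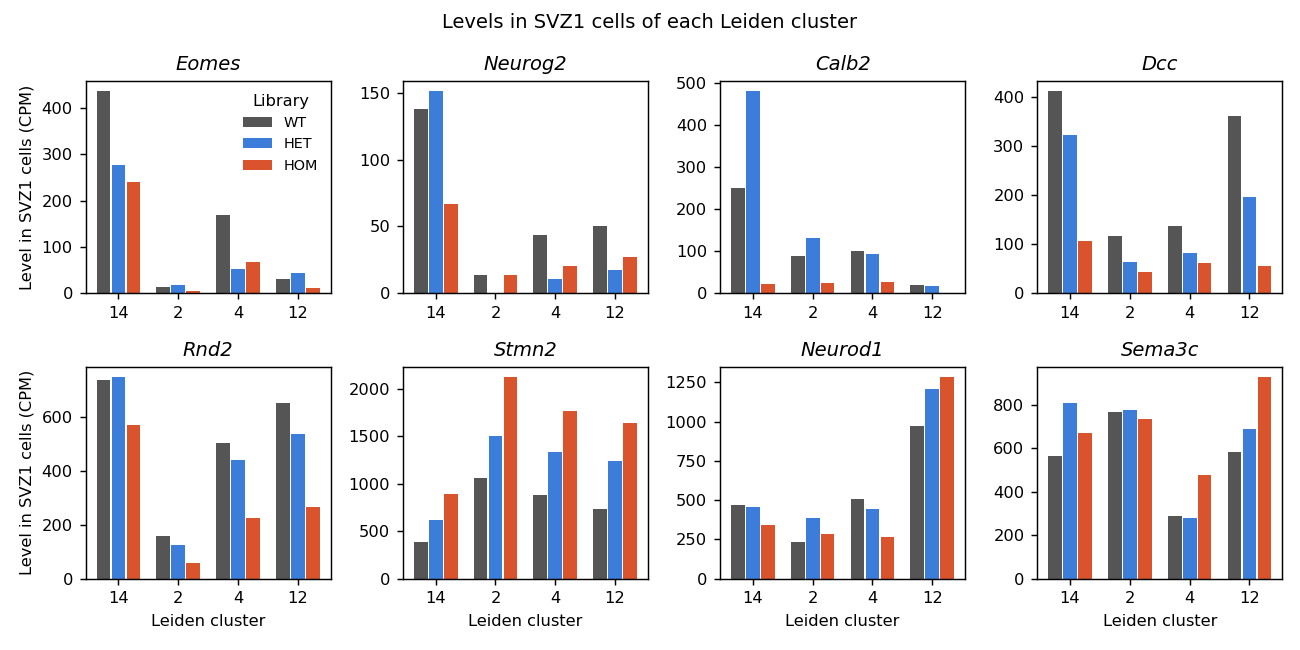
Levels in CPM of 8 genes in SVZ1 cells, split by the authors' Leiden cluster and by library. Eomes and Calb2 are highest in cluster 14 in WT and HET; Dcc is lower in HOM and Stmn2 higher in HOM than in WT in all 4 clusters shown.

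In HET, fewer genes lay past 2-fold. The 12 lowest genes had log2 ratios from -1.38 to -0.84, 4 of them past 2-fold. They were Camk2n1, Eomes, Mfap4, Gm48623, Cttn, Rcor2, Ncan, Mau2, Myef2, AC149090.1, Gm26917 and Numa1. All 12 were also below WT over all other cells, with a median of -0.58 there against -0.90 in SVZ1. Outside SVZ1, 4 were past 2-fold, namely Eomes, Mfap4, AC149090.1 and Gm26917. The genes were ranked by their ratio in SVZ1, so a smaller ratio elsewhere is partly fixed by that choice. Camk2n1, an inhibitor of the kinase CaMKII, was at 101, 38.9 and 46.2 CPM and was found in 11.4% (9.51 to 13.6%), 4.635% (3.05 to 6.72%) and 5.56% (4.065 to 7.39%) of SVZ1 cells. Its HET ratio was -1.38, -1.93 within cluster 14 and -0.19 over all other cells. Rcor2, a partner of the histone demethylase Kdm1a, was at 226, 121 and 147 CPM. Cttn, the actin-binding protein cortactin, was at 102, 52.8 and 65.9 CPM, and Ncan, a proteoglycan of the extracellular matrix, at 137, 73.6 and 75.7 CPM.

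The 12 highest genes in HET had log2 ratios from 0.76 to 1.11, 2 of them past 2-fold. They were Stmn4, Gm49708, Bex4, Tubb2a, Gtf2a2, Idh1, Fbxw7, Rtl8c, Rbbp7, Stmn2, Arpp21 and Ptn. Of these, 10 were also above WT over all other cells, with a median over the 12 of 0.37 there against 0.83 in SVZ1. The smaller median elsewhere is partly fixed by the ranking in SVZ1. Tubb2a, a neuronal tubulin, was at 356, 669.5 and 771 CPM, and it was above WT in all 17 other types compared in each mutant. Ptn, the growth factor pleiotrophin, was at 1050, 1777 and 2274 CPM and was found in 55.7% (52.5 to 58.8%), 69.7% (65.7 to 73.5%) and 81.9% (79.1 to 84.6%) of SVZ1 cells. Over all other cells the log2 ratio of Ptn was 0.45 in HET and 0.44 in HOM. It was above WT in all 17 other types in HET and in 12 of them in HOM. Fbxw7, a ubiquitin ligase subunit, was at 131.5, 233 and 179 CPM in SVZ1, while over all other cells its log2 ratio was -0.23 in HET and -0.55 in HOM.

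**Figure D5:**
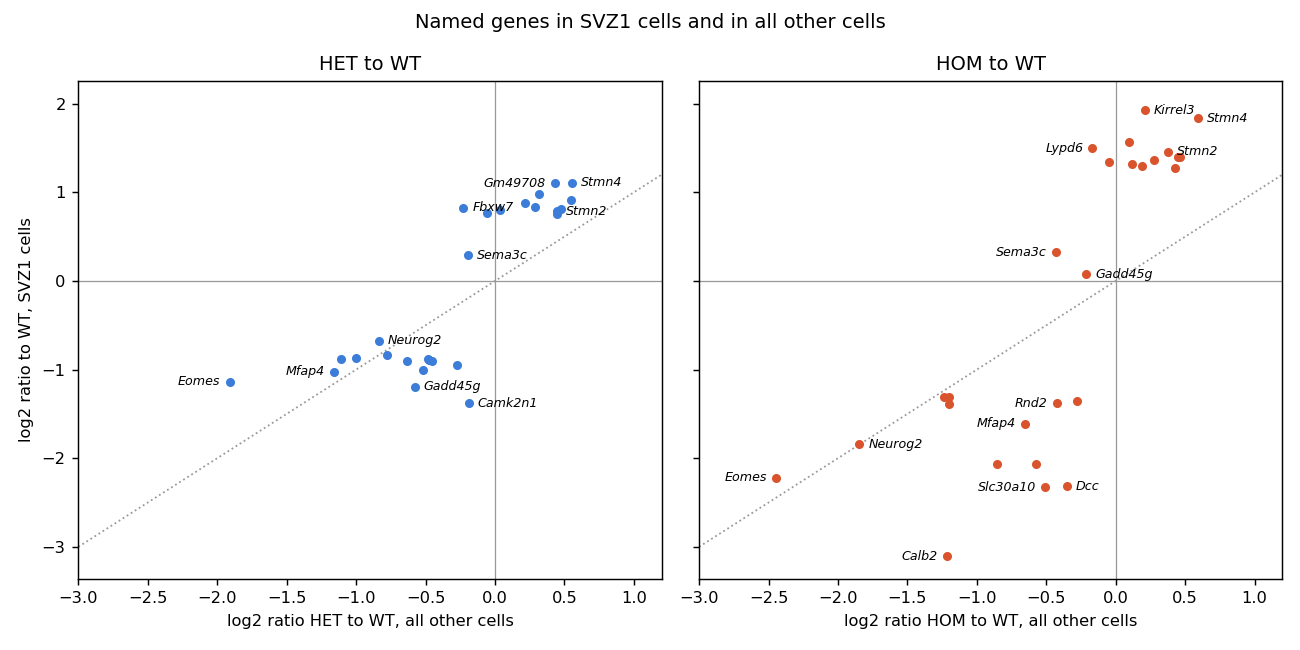
Log2 ratio to WT over all other cells (x axis) and in SVZ1 cells (y axis) for the 12 lowest and 12 highest genes of each mutant library and the 5 markers. The dotted line marks equal ratios; Eomes and Neurog2 lie near it in HOM, whereas Dcc, Slc30a10 and Calb2 lie below it.

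Lists of genes with other roles were read against the all-gene medians of -0.01 in HET and -0.08 in HOM, where 49.1% of genes were above WT in HET and 43.85% in HOM. Of 15 cytoskeleton genes, 14 were above WT in HET (median log2 ratio 0.24) and 15 in HOM (0.46), including Tubb2a, Tmsb4x (1999, 2525 and 3539 CPM) and Tubb5 (4367, 5415 and 5824 CPM). Over all other cells their median was 0.21 and 0.21. Of the glycolysis and hypoxia genes, 10 of 12 measured were above WT in HET (median 0.28) and 13 of 15 in HOM (0.70). Over all other cells the median of this list was 0.38 and 0.62. In HOM, Eno1, Ldha and Tpi1 were at least 2-fold higher, against 1.31% of all genes. Their HOM log2 ratios over all other cells were 0.90, 1.00 and 0.73. The glycolytic enzyme Gapdh was at 539, 614 and 1049 CPM.

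The newborn neuron and migration lists had medians near those of all genes. For newborn neuron genes the median was -0.06 in HET and 0.06 in HOM, with the neuronal factor Sox11 at 2709, 1995 and 1793 CPM and its relative Sox4 at 2314, 1653 and 2229 CPM. For migration and guidance genes it was -0.11 in HET and 0.00 in HOM, where 13 of 25 were above and 12 below WT. In HOM, 4 of the 25 were at least 2-fold lower and 1 at least 2-fold higher, against 3.54% and 1.31% of all genes. Among the lower ones, Rnd3, a relative of Rnd2, was at 87.9, 91.7 and 32.5 CPM and Epha4, an ephrin receptor, at 195, 131 and 93.45 CPM. Over all other cells the HOM ratio of Epha4 was -0.73.

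Layer genes had medians of -0.26 and -0.14 for upper layers and -0.09 and -0.24 for deep layers in HET and HOM. The upper-layer homeobox genes Cux1 and Cux2 were at 364, 422 and 597 CPM and 111, 90.3 and 179 CPM. Of 10 deep-layer genes measured in HOM, 3 were at least 2-fold lower, namely Nfia, Tle4 (67.4, 63.9 and 22.6 CPM) and Foxp2 (56.7, 29.2 and 20.7 CPM), against 3.54% of all genes. Ldb2, an adaptor of LIM factors on the same list, was at 25.5, 62.5 and 96.4 CPM, more than 2-fold higher in both mutants. Synapse genes of mature neurons had medians of -0.01 and 0.11.

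Of 7 measured cyclins and genes of cell cycle exit, 2 were above and 5 below WT in each mutant, with medians of -0.19 and -0.77. Ccnd2, a cyclin of cortical progenitors, was at 202, 156 and 84.6 CPM, with an HOM ratio of -1.26 over all SVZ1 cells and -0.22 within cluster 14. Btg1, an antiproliferative gene, was at 85.5, 75.0 and 34.4 CPM, and Cdkn1c, a cell cycle inhibitor, at 133, 139 and 68.9 CPM. Radial glia genes had medians of -0.30 and -0.19, with Pax6 at 69.9, 33.3 and 22.6 CPM and Fabp7, a fatty acid-binding protein, at 321, 501.5 and 570.5 CPM. S-phase genes had medians of 0.05 and 0.09 and G2/M genes of -0.14 and 0.06.

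Notch and Wnt pathway genes and corepressors were listed because MYT1L is known to repress both pathways and to act with SIN3 and histone deacetylases. Of 7 Notch pathway genes measured in HOM, 3 were above and 4 below WT, with Rbpj, the DNA-binding factor of the pathway, at 65.75, 56.95 and 35.4 CPM. The HET and HOM log2 ratios of Rbpj were -0.21 and -0.89 in SVZ1, beside -0.54 and -0.67 over all other cells. The Wnt list had medians of -0.18 and -0.15, beside -0.31 and -0.40 over all other cells. Sfrp1, a Wnt inhibitor, was at 235, 147 and 157 CPM and the ligand Wnt7b at 169, 172 and 306 CPM. The ratios of Sfrp1 were -0.67 and -0.58 in SVZ1 and -0.67 and -0.78 over all other cells. Those of Wnt7b were 0.02 and 0.85 in SVZ1 and -0.18 and 0.40 over all other cells. Of 10 corepressor genes, 4 were above and 6 below WT in HET, near the share over all genes (median -0.21), and 2 above and 8 below in HOM (-0.49). Kdm1a was at 241, 151 and 151.5 CPM and Chd4, a remodeller of the NuRD complex, at 438, 331 and 258 CPM. The corepressor medians over all other cells were -0.26 and -0.20. Ratios of Chd4 were -0.41 and -0.77 in SVZ1 and -0.53 and -0.64 over all other cells, and it was below WT in all 17 other types in each mutant. Ratios of Kdm1a were -0.67 and -0.67 in SVZ1 and -0.31 and -0.44 over all other cells. Myt1l itself was at 663, 842 and 1455 CPM and was found in 54.3% (51.2 to 57.5%), 65.6% (61.5 to 69.5%) and 82.45% (79.6 to 85.0%) of SVZ1 cells. Its HOM log2 ratio was 1.13 in SVZ1, 0.98 within cluster 14 and 0.97 over all other cells.

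Markers of other cells were low in SVZ1 but not equal between libraries. The summed level of 12 microglia genes was 51.8, 33.3 and 50.2 CPM, with 4, 6 and 2 of them at 0, and that of 14 endothelial and mural genes was 76.4, 80.6 and 74.8 CPM, with 2, 3 and 2 at 0. For 10 oligodendrocyte genes it was 34.5, 36.1 and 29.5 CPM, for 16 astrocyte genes 588, 519.5 and 533 CPM and for 18 interneuron genes 196, 217 and 193 CPM. The 9 meningeal genes summed to 11.5, 8.33 and 99.35 CPM, with Ptgds at 89.5 CPM in HOM, where its log2 ratio over all other cells was 6.84. The 11 genes of Cajal-Retzius cells, the first-born neurons of layer I, summed to 266, 278 and 45.25 CPM. Of these, 5, 6 and 6 were at 0. Calb2 and Zic1 were the measured members, and Calb2, at 169, 236 and 19.7 CPM, held most of the sum in WT and HET. Over all other cells the 11 genes summed to 202, 156 and 218 CPM, so that sum was not lower in HOM than in WT. The Zic1 levels given above rest on summed values of 90, 16 and 2. The red blood cell genes summed to 569, 493 and 778 CPM. The part of such RNA in the differences above was not tested.

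Transcripts linked to RNA quality moved with genotype as well. The ribosomal RNA-like transcripts Gm42418, at 22292, 11514 and 9588 CPM, and AY036118, at 475, 84.7 and 65.9 CPM, were lower in both mutant libraries. So was the gene Lars2, at 1700, 931 and 486 CPM. All 3 were lower in SVZ1 and in all 17 other types compared. Of 13 measured RNA quality genes, 6 were below WT in HET and 12 in HOM. Gm26917, which was not left out of the ranking and is one of the 12 lowest genes in HET, was at 93.7, 51.4 and 34.4 CPM. Their part in the other ratios was not tested.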

How the data were processed

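Cells were prepared from prefrontal cortex of newborn mice, and the 3 libraries were processed by the authors with Cell Ranger 4.0.0 on mm10 and Seurat 4.0, tools listed in the submitters' processing notes. Cells were called, filtered on detected genes and mitochondrial content, mapped onto a reference atlas and clustered by the authors, whereas doublet removal was not given in the sources used here. The deposited cell table holds the count of molecules per cell, the mitochondrial percent and, as a fraction, the probability of the cell type name. The deposited matrix of 18879 genes holds whole numbers that the authors had already corrected for depth by a step not stated with the file, so its values were treated as a score and no count model was run. The corrected total equalled the molecule count in 617 of 36263 cells. Correction of this kind pulls deep cells such as SVZ1 down to a common total, so shares of cells with a value above 0 can be lower than in their raw reads. Tables of the authors' own comparisons, with log2 fold changes and p-values over cells, were not used.

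Values were summed over cells of a name and library with Python 3.11.15, numpy 2.4.6, pandas 2.3.3 and scipy 1.17.1, divided by the total and multiplied by 1000000. Genes with a sum of at least 50 over both libraries were measured. Shares have exact 95% intervals for counting error. SVZ1 cells held 3504246, 2064388 and 3107574 molecules in WT, HET and HOM, so shares of fewer SVZ1 cells in HET are the least precise. Named genes were Myt1l, the 5 markers, the measured intermediate progenitor genes, up to 6 members of other lists with the largest ratio, the 15 genes that led SVZ1 against other cells, the cell type markers, and per mutant the 12 lowest and 12 highest genes whose sum reached 150. That ranking skipped genes of the sex chromosomes that mark sex, haemoglobins, Gm42418, AY036118, Lars2 and genes encoded in mitochondria, but not Gm26917. The genes shown in the plots of detection and of clusters were chosen after their values were seen, from the named genes. The cell type, gene lists and rules were chosen with earlier results of these data known. The ratio script was tested on simulated data. Free RNA was not estimated. A gene of the upper-layer list is not reported here and was left out of that list. Alternatives varied scaling, gene and depth filters, name probability and Y-linked transcripts, and those by Eomes at 0 and by Leiden cluster were added after the data were seen. Promoter windows came from RefSeq.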

Additional observations from a re-analysis of the deposited data

Results flagged for a closer look

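For 5 genes of the fixed lists and named sets, the log2 ratio to WT was at least 0.5 from 0 in SVZ1 and at least 0.25 from 0 with the other sign over all other cells, and the difference was not tested. Genes with opposite signs but smaller ratios, Fbxw7 and Sema3c among them, are not counted. Lypd6, a modulator of Wnt signalling and nicotinic receptors, had a log2 ratio of 0.68 in HET SVZ1 cells and -0.37 over all other HET cells. In HOM, the cortical neuron factor Pou3f1 (0.58 in SVZ1, -0.38 elsewhere) and the glutamate receptor subunit Grin2b (0.55, -0.42) were above WT in SVZ1 and below it elsewhere. Gria1, an AMPA receptor subunit, went the other way in HOM (-0.74, 0.29), and so did the glycolytic enzyme Gpi1 in HET (-0.62, 0.41). The values of Gria1 rest on summed values of 58, 33 and 29 in WT, HET and HOM.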

How the results depend on the processing

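No paired analysis was possible because each genotype is 1 library and no test was run. For the same reason no library was left out, nor were single runs, which the matrix pools. Of 274 alternatives of the main results, 228 stayed within the limits set for them, 45 moved and 1 reversed. Of 4482 for single genes, 4322 stayed, 155 moved and 5 reversed. The 5 single-gene ratios counted as reversed were all at least 2-fold in the main setting. Changes of sign in smaller ratios were not counted as reversed. With median-of-ratios scaling, for example, Elavl4 in HOM went from -0.05 to 0.02 and was counted as having stayed. These counts therefore do not show how many directions depend on the setting. The cause of a move or reversal was not tested unless named.

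Counting only cells with a transcript of a Y-linked gene, the SVZ1 share was 0.352 of WT in HET and 0.472 in HOM, and with Eomes at 0 it was 0.552 and 0.736. The log2 ratio of SVZ1 to SVZ2 (migrating) [8-P] was 2.67 for Eomes, 1.34 for Neurog2 and 1.87 for Mfap4, and it reversed to -0.72 for Sema3c. Against LayerV-VI [12-P] it was 4.34 for Eomes, 2.13 for Neurog2, 0.20 for Gadd45g and 1.41 for Sema3c. Against Ganglionic eminences [9-P] it was 2.20 for Eomes, 0.49 for Neurog2, -4.20 for Gadd45g, 4.93 for Sema3c and 0.68 for Mfap4. Against LayerII-IV [1-P] it was 1.27 for Gadd45g and 2.25 for Sema3c. Against all other cells it was -1.44 for Gadd45g in HET alone and 2.45 for Mfap4 in HOM alone.

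In SVZ1 cells with at least 1000 but fewer than 4000 molecules the share above 0, as a ratio to WT, was 0.736 for Neurog2 in HOM, 2.36 for Gadd45g in HOM, 0.851 for Mfap4 in HET and 0.516 for Mfap4 in HOM. Within cluster 14 it was 0.671 for Eomes in HOM, 0.984 for Neurog2 in HET, 1.29 for Sema3c in HET and 0.857 for Mfap4 in HOM.

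With a minimum sum of 20, 1.12% of genes were at least 2-fold higher and 2.80% lower in HET (96 and 239 genes), and 2.11% and 5.69% in HOM (186 and 501). With a minimum of 200 these were 0.0551% and 0.220% in HET (1 and 4 genes), and 1.56% were lower in HOM (32 genes). In cells with a Y-linked transcript 0.680% were higher and 2.04% lower in HET, and 3.04% higher in HOM. Within cluster 14, 0.469% were higher in HET, and within cluster 2, 0.572% were higher in HET and 2.16% lower in HOM. After subtracting the ratio over all other cells, 0.568% were higher and 0.430% lower in HET, and 0.838% and 1.34% in HOM. That subtraction reversed Eomes (0.78) and Mfap4 (0.14) in HET, and Eomes (0.23), Neurog2 (0.0017) and Ptgds (-3.40) in HOM, because their ratios over all other cells were as large or larger. It also changed the sign of smaller ratios that were not counted as reversed. Among them were Chd4 in HET (-0.41 in SVZ1, -0.53 over all other cells) and Sfrp1 in HOM (-0.58 and -0.78). With median-of-ratios scaling 102 genes were higher and 170 lower in HOM, against 81 and 220.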
